A study of Homo sapiens with 3 samples.

Results

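The genes described here are 33 targets of the transcription factor p53 or genes of the DNA damage response, chosen by name. The rule uses no measured value, but the list was drawn up with earlier results of these data known. Probes on the arrays carry transcript accessions, and matching these to RefSeq symbols found 31 of the 33 genes, among 19695 named genes in all. The 31 genes were measured by 48 of the 34041 probes used. No probe was matched to CYFIP2 or TP53I11, which are not analysed here.

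PANC-1 is an established human pancreatic cancer line, and its cells were grown with cantharidin, with okadaic acid or with neither agent. Both agents are inhibitors of PP2A, protein phosphatase 2A, which takes phosphate groups off many proteins. The control cells received no agent, and each treatment lasted 24 h, with 20 µM given for both agents in the sample labels although the treatment text can be read as giving that dose for cantharidin alone. Total RNA was labelled with Cy3 and hybridised to 3 Agilent 1-colour arrays, 1 for each group, so nothing measured the variation between cultures and no test across arrays was possible.

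The p53 protein is held at a low level by MDM2, which marks it for degradation. After DNA damage, kinases such as ATM and CHEK2 phosphorylate p53, it escapes MDM2, and it switches on genes that stop the cell cycle, repair DNA, kill the cell or, like MDM2 itself, shut the response down again. Many of the genes below are also switched on by other stress pathways, so a place on the list does not say which factor acted in these cells.

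Values are background-subtracted spot intensities. Differences and folds are relative to the 75th percentile of the same array, which was 784 intensity units on the control array, 713 with cantharidin and 936 with okadaic acid, so a fold is not the plain ratio of the intensities. A gene is given by its brightest probe unless another is named, and it was compared when either of the arrays measured it well above background. Probes well above background numbered 24768 on the control array, 25103 with cantharidin and 23071 with okadaic acid, the lowest such signal was 35.0, 21.9 and 58.0, and none was saturated. Replicate spots of probes printed 10 times had a median SD of 0.06 on the log2 scale in control, 0.09 with cantharidin and 0.07 with okadaic acid, and of 0.20 to 0.24 below 100 intensity units. This error covers spots only. Of 7 markers fixed for the line, 7 were well above background in control and 6 with each agent, where CDH1, an epithelial adhesion gene, was not. Of 15 markers of other cell types, 12, 12 and 11 were well above background, with a summed intensity of 7388 in control, 5690 with cantharidin and 14995 with okadaic acid, of which the monocyte gene CD14 made up 2535, 1838 and 11044. The part of this signal in the results was not tested. In RNA from a whole culture, fewer cells expressing a gene and less RNA per cell cannot be told apart.

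Promoters were searched for exact matches to the letters bound by p53 in front of these genes. The table of RefSeq promoters on GRCh38.p14 held 29 of the 33 genes, with 43 windows of 250 bases before a transcription start. A p53 half-site, the 10-base motif of which a full response element holds a pair, was searched on both strands. Only sites that matched the motif at all 10 bases were counted. Response elements with any other letter were missed, so a window without a match may still hold one. An exact half-site was in the windows of 4 genes (4 of 43 windows, 9.30%) and in 5.57% of all 35116 windows. These 4 windows follow, with each half-site in capitals and, for PLK2, also the cyclic AMP response element core TGACGT in capitals.
PLK2, chr5:58460087-58460336, minus strand: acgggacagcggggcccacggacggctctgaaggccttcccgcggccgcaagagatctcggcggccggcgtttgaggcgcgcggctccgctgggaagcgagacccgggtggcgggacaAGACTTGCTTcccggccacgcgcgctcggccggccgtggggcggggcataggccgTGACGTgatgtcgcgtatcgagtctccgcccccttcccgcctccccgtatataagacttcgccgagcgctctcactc
AEN, chr15:88621090-88621339, plus strand: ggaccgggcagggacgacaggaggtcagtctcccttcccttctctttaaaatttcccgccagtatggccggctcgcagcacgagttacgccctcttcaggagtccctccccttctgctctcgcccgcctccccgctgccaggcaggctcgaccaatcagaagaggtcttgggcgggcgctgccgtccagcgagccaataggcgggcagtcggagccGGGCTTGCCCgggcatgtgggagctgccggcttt
FDXR, chr17:74872995-74873244, minus strand: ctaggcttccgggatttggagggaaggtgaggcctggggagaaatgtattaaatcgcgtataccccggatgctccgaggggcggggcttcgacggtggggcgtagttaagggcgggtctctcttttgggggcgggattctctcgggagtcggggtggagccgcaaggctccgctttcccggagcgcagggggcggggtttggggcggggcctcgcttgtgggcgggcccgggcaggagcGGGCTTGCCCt
SESN1, chr6:109008989-109009238, minus strand: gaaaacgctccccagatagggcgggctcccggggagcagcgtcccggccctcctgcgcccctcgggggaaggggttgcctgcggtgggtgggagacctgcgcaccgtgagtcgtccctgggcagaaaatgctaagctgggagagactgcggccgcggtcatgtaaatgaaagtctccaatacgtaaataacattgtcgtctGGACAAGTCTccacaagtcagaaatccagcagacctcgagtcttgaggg

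The half-site began 132 bases before the start in PLK2, 34 in AEN, 11 in FDXR and 49 in SESN1. The letters TGACGT, searched on both strands, were also in windows of PPM1D, TIGAR and XPC, 4 genes with PLK2. This was 4 of the list's 43 windows (9.30%), beside 7.10% of all windows. The AP-1 letters TGANTCA were in windows of EDA2R, MDM2, PERP and SFN, 5 of 43 windows (11.6%), beside 6.57% of all windows. MDM2 was counted with overlapping windows that hold the same site. The letters TATAAA were in windows of GADD45B and GDF15, 2 of 43 windows (4.65%), beside 10.7% of all windows. A match of letters is a description and no measured binding, and the genes with an exact half-site did not share a direction. PLK2 was higher with both agents, AEN with cantharidin, and FDXR was lower with cantharidin and SESN1 with okadaic acid.

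With cantharidin, 11 of the 29 genes compared were at least 1.5-fold higher than in control, a size passed by 27.5% of all 16642 genes compared. Lower signals of that size were found for 10 of the 29, beside 34.1% of all genes. With okadaic acid, 13 of 30 were higher, beside 28.1% of all 16164 genes, and 8 were lower, beside 28.8%. The 13 include APAF1, which was compared only because the okadaic acid array measured it well above background. The share of the list past 1.5-fold was 37.9% higher and 34.5% lower with cantharidin, and 43.3% higher and 26.7% lower with okadaic acid. The median log2 difference of the list was 0.01 with cantharidin, where the median of all genes was -0.16, and 0.37 with okadaic acid, where it was 0.01. These medians were the same to 2 decimals with dim signals set to the floor of their array. Both comparisons use the same control array. The list therefore held large differences in both directions, from -3.35 to 3.59 on the log2 scale with cantharidin and from -3.00 to 5.20 with okadaic acid.

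**Figure D1:**
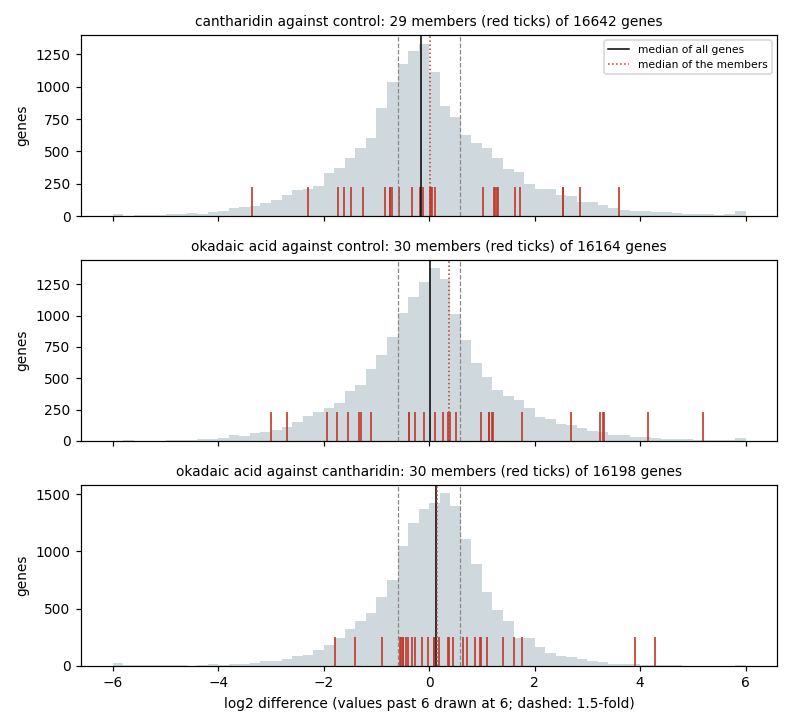
Histograms of the log2 difference of all genes compared (vertical axis, number of genes), with the list's genes as red ticks, for cantharidin against control, okadaic acid against control and okadaic acid against cantharidin. Dashed grey lines mark 1.5-fold, the solid line is the median of all genes and the dotted red line that of the list, at 0.01, 0.37 and 0.15 from top to bottom.

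**Figure D2:**
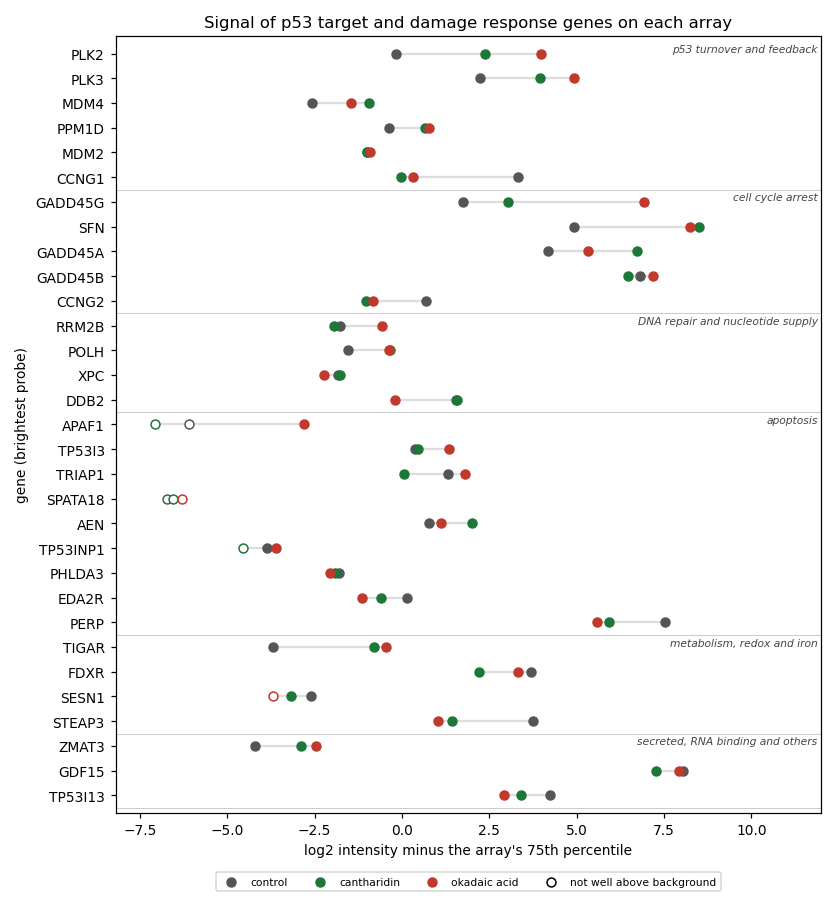
Signal of the brightest probe of each of the 31 genes on each array (control grey, cantharidin green, okadaic acid red), as log2 intensity minus the 75th percentile of the array, grouped by role. Open circles are signals not well above background. Levels are to be compared along a row only, since probes of different genes differ in response.

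Of the 6 genes that set the level and activity of p53, PLK2, PLK3 and MDM4 were at least 1.5-fold higher with both agents and CCNG1 was lower. The brightest probe of PPM1D made 4 higher genes with each agent, but its other probe went the opposite way. Over all genes, 27.5% were higher with cantharidin and 28.1% with okadaic acid. PLK2, a polo-like kinase of the stress response, had intensities of 700.0 in control, 3676 with cantharidin and 14787 with okadaic acid. It was thus 5.78-fold higher with cantharidin and 17.7-fold higher with okadaic acid, and 3.06-fold higher with okadaic acid than with cantharidin. PLK3, a related kinase that can phosphorylate p53, showed the same order. Its intensity was 3707 in control, 11075 with cantharidin (3.29-fold higher) and 28665 with okadaic acid (6.48-fold higher). Between the agents PLK3 differed by 1.97-fold.

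MDM4, a relative of MDM2 that blocks the activating region of p53, was higher with both agents on a probe printed 10 times. Its spots ran from 120 to 139 in control with a median of 130, from 349 to 394 with cantharidin with a median of 370, and from 328 to 363 with okadaic acid with a median of 339. No spot of the treated arrays overlapped with the control spots. The folds were 3.11 for cantharidin and 2.20 for okadaic acid, and the SD of the spots was 0.07, 0.06 and 0.04 on the log2 scale. The other MDM4 probe was well above background only with cantharidin, at 47.7.

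MDM2, the ligase that degrades p53 and itself a classic p53 target, stayed within 1.08-fold of control on its brightest probe, at 388 in control, 355 with cantharidin and 500 with okadaic acid. The second probe, printed 10 times, read 98.7, 104 and 196, and was 1.16-fold higher with cantharidin and 1.66-fold higher with okadaic acid. Its spots ran from 81.9 to 126 in control and from 166 to 232 with okadaic acid. The third probe was well above background only with okadaic acid, at 80.2, at least 1.92-fold higher than in control. The 3 MDM2 probes thus gave differences of different size for okadaic acid, and which transcripts each detects was not tested.

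PPM1D, the phosphatase that removes damage-induced phosphates from p53 and the kinases above it, had probes that went opposite ways. The brightest read 610 in control, 1129 with cantharidin and 1590 with okadaic acid, 2.04-fold and 2.18-fold higher. The other read 1530, 547 and 758, which was 2.54-fold lower with cantharidin and 2.41-fold lower with okadaic acid. No direction can be given for the gene, which the counts take by its brightest probe. CCNG1, cyclin G1, which recruits PP2A to MDM2, was the lowest gene of the list relative to control. It read 7773 in control, 692 with cantharidin and 1159 with okadaic acid, 10.2-fold and 8.01-fold lower. Its other probe read 1344, 185 and 391, which was 6.61-fold and 4.10-fold lower.

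**Figure D3:**
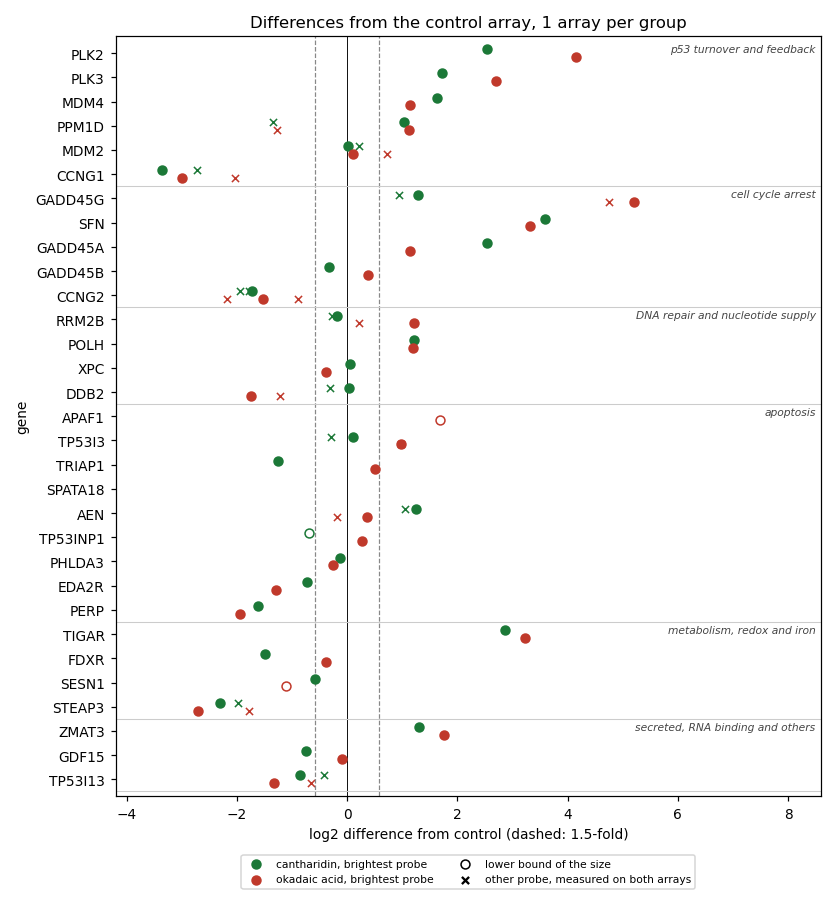
Log2 difference from the control array for cantharidin (green) and okadaic acid (red) by gene, grouped by role. Filled circles are the brightest probe, open circles are lower bounds of the size where 1 array was not well above background, crosses are other probes measured on both arrays and dashed lines mark 1.5-fold. PPM1D has crosses on the opposite side of 0 from its circles.

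Genes of cell cycle arrest held the highest fold with each agent. Of 5, 3 were at least 1.5-fold higher with cantharidin (27.5% of all genes) and 3 with okadaic acid (28.1% of all genes). SFN, also called 14-3-3 sigma, which holds cells before mitosis, read 23676 in control, 259451 with cantharidin and 282273 with okadaic acid. It was 12.1-fold higher with cantharidin and 9.99-fold higher with okadaic acid, and the agents lay close together.

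The 3 GADD45 genes, which encode small stress proteins acting on cyclin B1-CDK1 and on stress kinases, differed in which agent gave the higher signal. GADD45A read 14341 in control, 75743 with cantharidin and 37645 with okadaic acid, 5.81-fold and 2.20-fold higher. It was 2.64-fold lower with okadaic acid than with cantharidin. GADD45G had the opposite order, at 2609, 5807 and 114460. It was 2.45-fold higher with cantharidin and 36.8-fold higher with okadaic acid, with a log2 difference of 3.91 between the agents. The other GADD45G probe read 201, 351 and 6445, with 1.92-fold and 26.9-fold higher signals. GADD45B was already bright in control and passed 1.5-fold with neither agent. Its intensities of 87578, 63232 and 136693 were 1.26-fold lower with cantharidin and 1.31-fold higher with okadaic acid, and the agents differed by 1.65-fold.

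CCNG2, cyclin G2, a cyclin that restrains division, was lower on all of its 3 probes. The brightest read 1272 in control, 350 with cantharidin and 525 with okadaic acid, 3.30-fold and 2.89-fold lower. The second read 691, 182 and 183, and the third 147, 34.8 and 94.6, so for okadaic acid the probes differed by over 1.5-fold in the size of the difference, with log2 differences from -2.17 to -0.89.

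Among the 4 genes of DNA repair and nucleotide supply, 1 was higher with cantharidin, while 2 were higher and 1 lower with okadaic acid. Of all genes, 27.5% were higher with cantharidin, and 28.1% were higher and 28.8% lower with okadaic acid, so each count of 1 in 4 is near the background. POLH, the polymerase that copies past ultraviolet lesions, was the gene higher with both. It read 268 in control, 567 with cantharidin and 731 with okadaic acid, 2.33-fold and 2.29-fold higher. The other POLH probe was well above background with okadaic acid only, at 82.0. DDB2, which recognises ultraviolet damage for nucleotide excision repair, read 2284, 2125 and 814. It was 1.02-fold higher with cantharidin and 3.35-fold lower with okadaic acid, and 3.43-fold lower with okadaic acid than with cantharidin. The other DDB2 probe, at 428, 314 and 221, gave a log2 difference between the agents of -0.90 in place of -1.78. RRM2B, the p53-induced subunit of ribonucleotide reductase, which supplies nucleotides for repair, had a high signal with okadaic acid alone. Its 229 in control, 183 with cantharidin and 632 with okadaic acid were 1.14-fold lower and 2.31-fold higher. The other RRM2B probe read 100, 75.1 and 139 and was 1.16-fold higher with okadaic acid, below the threshold. XPC, the damage sensor of the same excision pathway as DDB2, read 219, 207 and 200 and passed 1.5-fold with neither agent.

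**Figure D4:**
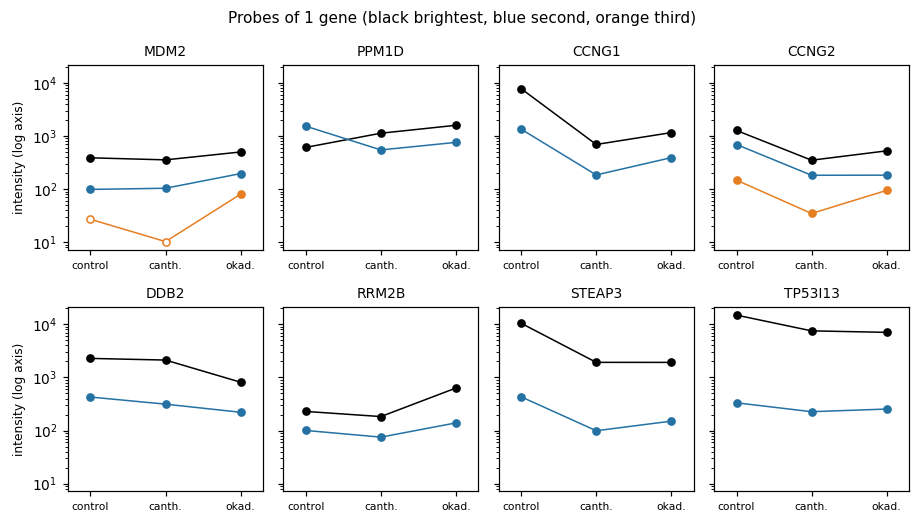
Intensity (log axis) on each of the 3 arrays of every probe of the 8 genes whose measured probes differed from each other by over 1.5-fold in a difference between arrays. Lines join the values of 1 probe, and open circles are signals not well above background. The probes of PPM1D cross, while those of CCNG1, CCNG2 and STEAP3 are lower with both agents.

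Of 10 apoptosis genes listed, 7 could be compared with cantharidin and 8 with okadaic acid. With cantharidin 1 was higher and 4 were lower, beside 27.5% and 34.1% of all genes, and 1 of the 4 was TP53INP1, whose probes disagreed. With okadaic acid 2 were higher and 2 lower, beside 28.1% and 28.8%. SPATA18, a regulator of mitochondrial quality, was below that level on every array and could not be compared.

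APAF1, the core of the apoptosome that activates caspase 9, was well above background with okadaic acid alone, at 134. It was at least 3.21-fold higher than in control and at least 4.67-fold higher than with cantharidin, and it entered the comparison only through the array on which it was high. With normexp background correction its log2 differences were 0.94 and 1.18. PERP, a membrane protein of cell adhesion and p53-dependent death, was lower with both agents. It read 145149 in control, 43301 with cantharidin and 45318 with okadaic acid, 3.05-fold and 3.82-fold lower. EDA2R, a receptor of the tumour necrosis factor family, read 868, 474 and 425, 1.66-fold and 2.44-fold lower. With normexp background correction its log2 difference for cantharidin was -0.58, just short of the threshold.

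TRIAP1, a small protein that holds apoptosis back, lay on both sides of control. Its 1939 in control, 740 with cantharidin and 3278 with okadaic acid were 2.38-fold lower and 1.42-fold higher, so only the first passed the threshold, and the agents differed by 3.37-fold. AEN, a nuclease that cuts DNA during apoptosis, read 1339, 2882 and 2045. It was 2.37-fold higher with cantharidin and 1.28-fold higher with okadaic acid, 1.85-fold lower with okadaic acid than with cantharidin. The other AEN probe read 1016, 1913 and 1065, slightly below control with okadaic acid after scaling. TP53I3, a quinone oxidoreductase that raises reactive oxygen, was higher with okadaic acid only. Its 1008, 988 and 2382 were 1.08-fold higher with cantharidin and 1.98-fold higher with okadaic acid. The other TP53I3 probe read 520, 388 and 1231, on the lower side of control with cantharidin and short of the threshold.

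TP53INP1, a nuclear stress protein that aids phosphorylation of p53, was dim. It read 53.9 in control and 77.5 with okadaic acid and was not well above background with cantharidin, where it was at least 1.62-fold lower. Its second probe, by contrast, was well above background with cantharidin only. PHLDA3, which competes with AKT for membrane lipids, stayed within 1.20-fold of control with both agents.

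Of the 4 genes of metabolism, redox and iron, TIGAR was higher with both agents and STEAP3 lower. TIGAR, a phosphatase that slows glycolysis, read 61.1 in control, 406 with cantharidin and 688 with okadaic acid, 7.31-fold and 9.42-fold higher. With normexp background correction its log2 differences were 1.80 and 2.05, in place of 2.87 and 3.24. STEAP3, a reductase that frees iron taken up with transferrin, read 10470, 1925 and 1921, 4.94-fold and 6.51-fold lower. The other STEAP3 probe read 431, 99.3 and 150, with a smaller log2 difference for okadaic acid of -1.78 in place of -2.70. FDXR, a mitochondrial reductase that feeds electrons to P450 enzymes, read 10128, 3282 and 9277. It was 2.80-fold lower with cantharidin and 1.30-fold lower with okadaic acid, and the agents differed by 2.15-fold. SESN1, a sestrin that restrains mTORC1, read 130 in control and 78.9 with cantharidin, 1.49-fold lower and so just short of the threshold. With okadaic acid it was not well above background and at least 2.16-fold lower.

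ZMAT3, a zinc finger protein that binds RNA, was printed 10 times and was higher with both agents. Its spots reached 61.0 in control with a median of 41.2, and ran from 85.6 to 106 with cantharidin with a median of 96.3, and from 160 to 191 with okadaic acid with a median of 169. The spots of the 3 arrays did not overlap, and the folds were 2.47 and 3.38. With normexp background correction the log2 differences were 0.56 with cantharidin, short of the threshold, and 0.77 with okadaic acid, in place of 1.31 and 1.76. TP53I13, a membrane protein, read 14924 in control, 7540 with cantharidin and 7067 with okadaic acid, 1.80-fold and 2.52-fold lower. With differences centred within blocks of the array, its log2 difference for cantharidin was -0.49, short of the threshold. Its other probe read 333, 226 and 254, and for okadaic acid its log2 difference was -0.65 in place of -1.33. GDF15, a secreted stress cytokine, was bright on every array. Its 205455, 111154 and 228931 were 1.68-fold lower with cantharidin and 1.07-fold lower with okadaic acid.

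The agents were also compared with each other. Of 30 genes, 11 were at least 1.5-fold higher with okadaic acid than with cantharidin, beside 29.5% of all 16198 genes, and 3 were lower, beside 22.3%. The count of lower genes depended on the processing, at 8 with median scaling, 6 with quantile normalization, 7 in the deposited table and 5 with differences centred within blocks. The median of all genes moved too, from 0.13 to -0.02, 0.05, 0.06 and 0.12 in the same order. The share of all genes lower with these settings is not given here, so the higher counts cannot be read as particular to the list. The 3 lower genes were DDB2, GADD45A and AEN. The 5 with the largest higher signal were GADD45G, APAF1, TRIAP1, PLK2 and RRM2B. GADD45G had a measured log2 difference of 3.91. APAF1, among the 11, was well above background with okadaic acid alone, so its log2 difference is known only as at least 2.22. The median log2 difference was 0.15, beside 0.13 for all genes. After the 3 genes named as lower, the next in that direction were EDA2R and SESN1, neither of which was counted. EDA2R had a log2 difference of -0.55, short of the threshold. It passed with median scaling (-0.70), quantile normalization (-0.61), the deposited table (-0.66) and centring within blocks (-0.588). SESN1 was at least 1.45-fold lower, a bound that cannot place it short of the threshold. Its log2 difference was -0.68 with median scaling, -0.72 with quantile normalization and -0.85 in the deposited table.

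Genes of the pathway outside the list were described in 3 groups. Of 20 other p53 targets, 12 were higher and 3 lower with cantharidin, and 11 higher and 3 lower with okadaic acid, with median log2 differences of 0.82 and 0.63. The shares of all genes were 27.5% higher and 34.1% lower with cantharidin, and 28.1% higher and 28.8% lower with okadaic acid. CDKN1A, the inhibitor p21 that blocks cyclin-dependent kinases, read 255 in control, 2302 with cantharidin and 1691 with okadaic acid, log2 differences of 3.31 and 2.47. SESN2, the stress-induced relative of SESN1, read 488, 9557 and 3148, 21.6-fold and 5.41-fold higher. BTG2, an antiproliferative gene, read 793, 4269 and 9655, 5.92-fold and 10.2-fold higher. TNFRSF10B, the death receptor of the ligand TRAIL, was 7.49-fold higher with cantharidin, at 58610 against 8612. Lower with cantharidin were the death receptor FAS (2.16-fold), the receptor kinase EPHA2 (1.58-fold) and BBC3 (1.53-fold), known as PUMA, a trigger of mitochondrial death. Lower with okadaic acid were the ubiquitin ligase subunit FBXO22 (2.73-fold), EPHA2 (2.34-fold) and BAX (1.54-fold), which opens mitochondria. BBC3 was 1.51-fold higher with okadaic acid.

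Of the sensors and kinases that signal damage to p53, 1 of 18 compared was higher and 8 were lower with cantharidin, beside 27.5% and 34.1% of all genes. With okadaic acid 4 of 18 were higher and 6 lower, near the 28.1% and 28.8% of all genes. The median log2 differences were -0.13 and -0.05, beside -0.16 and 0.01 for all genes. RAD17, counted as lower with both agents, was compared only because the control array measured it well above background, at 75.5. CHEK2, a kinase of p53, read 822 in control, 168 with cantharidin and 502 with okadaic acid, 4.43-fold and 1.95-fold lower. PRKDC, the catalytic subunit of the DNA-dependent kinase, read 2111, 580 and 570, 3.31-fold and 4.42-fold lower. ATM, the kinase that responds to double-strand breaks, read 1547, 451 and 2228, 3.12-fold lower with cantharidin and 1.21-fold higher with okadaic acid. MDC1, a scaffold at breaks, was 2.06-fold lower with cantharidin and 2.50-fold lower with okadaic acid. Higher genes were HUS1, a clamp subunit (2.46-fold with cantharidin, 1.79-fold with okadaic acid), TP53BP1, a repair scaffold (3.24-fold with okadaic acid), and TOPBP1, an activator of ATR (1.83-fold with okadaic acid). NBN had no matched probe.

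In the group of p53 relatives and regulators, 8 of 18 genes compared were higher and 4 lower with cantharidin, beside 27.5% and 34.1% of all genes. Of the 17 with a measured or bounded difference, 7 were higher and 4 lower. With okadaic acid 8 of 17 compared were higher and 3 lower, beside 28.1% and 28.8%. Of the 15 with a measured or bounded difference, 8 were higher and 2 lower. The 8 include CDKN2A, which was 2.97-fold higher on its brightest probe but at least 1.78-fold lower on its other probe. The 2 lower genes were PPP1R13B and HIPK2, whose other probes did not show a lower signal of that size. Both are also among the 4 lower with cantharidin. EP300, an acetyltransferase that serves p53 as a coactivator, read 154 in control, 902 with cantharidin and 1058 with okadaic acid, 6.43-fold and 5.74-fold higher. Its relative CREBBP was 5.26-fold higher with cantharidin and 1.47-fold higher with okadaic acid, the latter short of the threshold. The p53 ligase COP1 was 3.95-fold higher with cantharidin and 2.5-fold higher with okadaic acid. TRIM24, another p53 ligase, was 1.96-fold higher with cantharidin and 3.97-fold higher with okadaic acid. The deacetylase SIRT1 was 3.14-fold and 3.61-fold higher. KAT5, an acetyltransferase, was 2.90-fold lower with cantharidin. DYRK2, a p53 kinase, read 80.8, 37.2 and 234, 1.97-fold lower with cantharidin and 2.43-fold higher with okadaic acid. HIPK2, also a p53 kinase, was 1.51-fold lower with cantharidin and 1.65-fold lower with okadaic acid on its brighter probe. Its other probe was 1.26-fold higher with cantharidin and within 1.01-fold of control with okadaic acid. PPP1R13B, a cofactor of p53 in apoptosis, had no settled direction, since its probes read 1807, 597 and 999, and 194, 698 and 454.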

How the data were processed

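RNA of 1 culture per group was measured on 3 Agilent 1-colour arrays from 1 slide and 1 scan, so position on the slide and group cannot be told apart. The authors deposited the scanner output, whose processed spot intensity was, per the file headers, background-subtracted and detrended within each array by Feature Extraction 11.0.1.1, with probe annotation on hg19. A table of log2 values that the authors had normalized was deposited too, for 30923 probes. How it was normalized or centred is not given in the sources used here. Its column medians were 7.74. Each column correlated best with its own array (r of at least 0.998) and it served as an alternative.

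For each probe, spots with outlier flags were dropped, log2 intensity was averaged and the 75th percentile of the array was subtracted. Accessions were matched without version to RefSeq symbols of GRCh38.p14, from names only. The brightest probe, by mean log2 signal over the arrays, stood for its gene. Where 1 array was not well above background, the fold is "at least" the bright signal over the dim one or, if that was higher, over the lowest signal that counted as well above background there. The threshold was 1.5-fold. The number of arrays limits the precision. Genes, lists and roles were chosen with earlier results of these data known. Full values were given for genes past 1.5-fold with both agents or in opposite directions, and for the 5 genes with the largest difference between agents each way. Several others were added after their values were seen. From the pathway groups, CDKN1A and at most 3 genes per agent and direction were named, and 1 gene that the rule also names is not reported here. The counting step was tested on simulated data. Tools were Python 3.11.15 (pandas 2.3.3, numpy 2.4.6, matplotlib 3.10.9) and limma 3.58.1 in R 4.3.3.

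Alternatives were normexp with an offset of 50 on the median spot and background intensity, 4 other scalings, both other filters on dim probes, dim signals at the floor, the deposited table, a 2-fold threshold, the median over probes, each probe by itself and differences centred within 16 blocks of the array.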

Additional observations from a re-analysis of the deposited data

How the results depend on the processing

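With 1 array per group no value has a replicate check, leaving out a replicate was not possible, and spot noise is the only error. No paired analysis was possible because each group has 1 array. Scaling moved the median log2 difference of all genes, from -0.16 to between -0.30 and -0.09 for cantharidin, from 0.01 to between -0.11 and 0.26 for okadaic acid and from 0.13 to between -0.02 and 0.52 between the agents, and values near 0 are relative to this shift. At a 2-fold threshold, 6 of 29 genes were lower with cantharidin (20.7%, beside 22.3% of all genes). At that threshold 6 of 30 were higher with okadaic acid than with cantharidin (20.0%, beside 16.5%). The list's median for cantharidin became -0.13 without scaling (all genes -0.30) and -0.14 with the median over probes (-0.17). It was -0.18 with each probe by itself (all probes -0.17). For okadaic acid the list's median was 0.25 with median scaling (all genes -0.11), 0.49 with quantile normalization (-0.03) and 0.63 without scaling (0.26). It was 0.49 in the deposited table (-0.02) and 0.24 with each probe by itself (all probes -0.01). By single probes, 15 of 44 were lower (34.1%, beside 27.7% of all probes). Between the agents the list's median was -0.0052 with median scaling (all genes -0.02), 0.54 without scaling (0.52) and 0.28 with the median over probes (0.12). With each probe by itself, 17 of 46 probes were higher with okadaic acid than with cantharidin (37.0%, beside 28.0% of all probes). In that comparison 7 were lower (15.2%, beside 22.5%). Of its 30 genes, 8 were lower with median scaling, 6 with quantile normalization, 7 in the deposited table and 5 when centred within blocks. The share of all genes lower with these settings is not given, so these counts have no background beside them. With the median over its opposed probes, PPM1D was at -0.16 with cantharidin and -0.071 with okadaic acid, and POLH at 0.60 between the agents. Of the alternative values of single genes, 242 of 251 for cantharidin, 259 of 262 for okadaic acid and 242 of 262 between the agents kept their direction and their side of the threshold. The cause of each change was not tested, beyond the use of more or other probes by the last 2 kinds of setting.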
